A study of Mus musculus with 5 samples.

Results

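Within one library of mouse small intestinal organoids that lack Lkb1, this account follows the cells with the highest share of transcripts from 5 genes usually known from the stomach. The 5 genes were Tff1, Tff2, Gkn1, Vsig1 and Anxa10. The wells were selected on those genes: the 335 kept wells of the library were ranked by the summed share of their unique molecular identifiers (UMIs) that came from the 5 genes, and cut into 4 groups of near-equal size. The 83 wells with the highest share are called high wells here, and the 83 with the lowest share are called low wells. The high wells were 83 of 335 kept wells in the library and of 1550 kept wells in the 5 libraries. The groups in between held 84 and 85 wells.

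Organoids are gut epithelial cells cultured as small hollow bodies in a gel. Their cells were sorted singly into wells, and SORT-seq then tagged the 3′ ends of each cell's transcripts with a well code and a UMI. Each library was 1 plate of 384 wells, and the groups, by genotype, were wild-type small intestinal organoids (WT), Lkb1 +/- organoids (het), Lkb1 -/- organoids with the title mark Bud, Lkb1 -/- organoids with the title mark Cys, and wild-type fetal intestinal organoids (fetal). The high wells belong to Cys. The labels do not explain the marks Bud and Cys, do not say how the Lkb1 alleles were made, and give the cultures a medium with Egf, R-spondin and Noggin. With 1 library per group there was no test between groups, and the wells of Cys are cells of 1 culture and not replicates. Intervals in brackets are 95% counting intervals and cover counting error only, unless another kind is named.

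Trefoil factors such as Tff1 and Tff2 are small, disulfide-rich peptides that mucous cells secrete together with mucins to protect and repair the surface of the gut. In the healthy stomach Tff1 is a product of surface mucous cells and Tff2 of mucous neck cells, while Tff3 is the trefoil peptide of intestinal goblet cells. Gastrokines such as Gkn1 are secreted proteins of gastric mucous cells, Vsig1 is a junction protein of gastric epithelium, and Anxa10 is an annexin with a gastric pattern of expression. LKB1, the kinase encoded by Stk11, switches on AMPK and its relatives.

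In the mouse genome (GRCm38) the trefoil genes are neighbours. Tff1 lies at chr17:31161395-31165277, Tff2 at chr17:31141049-31144282 and Tff3 at chr17:31125306-31129646, all on the minus strand and together within 40.0 kb. Gkn1 at chr6:87345650-87350942 on the minus strand has Gkn2 (chr6:87373357-87379497, plus strand) and Gkn3 (chr6:87383256-87388935, minus strand) beside it, within 43.3 kb. Vsig1 is at chrX:140907608-140939472 and Anxa10 at chr8:62057042-62123150. The 250 bases before the start of each gastrokine gene are shown because Gkn2 and Gkn3, which had no part in choosing the wells, had higher levels in the high wells with Gkn1. They are RefSeq sequences of GRCm38.p6 on the gene's own strand, counted from RefSeq's starts, which for Gkn1 and Gkn2 lie a little inside the GENCODE spans given above, so the last bases of those windows are within the GENCODE gene. The windows are at chr6:87350916-87351165 for Gkn1, chr6:87373115-87373364 for Gkn2 and chr6:87388936-87389185 for Gkn3. Capitals mark matches to 3 motifs searched on both strands, which were TATAAA for the box that positions transcription starts, AGATAA for GATA factors and TGTTTAC for forkhead factors.
Gkn1: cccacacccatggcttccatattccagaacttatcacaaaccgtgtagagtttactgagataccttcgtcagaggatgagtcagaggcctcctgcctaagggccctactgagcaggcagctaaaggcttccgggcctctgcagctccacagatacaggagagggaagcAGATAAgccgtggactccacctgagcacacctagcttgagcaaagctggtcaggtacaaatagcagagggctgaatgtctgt
Gkn2: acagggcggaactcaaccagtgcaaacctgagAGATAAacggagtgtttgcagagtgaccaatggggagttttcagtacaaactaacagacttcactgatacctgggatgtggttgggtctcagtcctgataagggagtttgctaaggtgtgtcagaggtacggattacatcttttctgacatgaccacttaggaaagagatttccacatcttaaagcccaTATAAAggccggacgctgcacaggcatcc
Gkn3: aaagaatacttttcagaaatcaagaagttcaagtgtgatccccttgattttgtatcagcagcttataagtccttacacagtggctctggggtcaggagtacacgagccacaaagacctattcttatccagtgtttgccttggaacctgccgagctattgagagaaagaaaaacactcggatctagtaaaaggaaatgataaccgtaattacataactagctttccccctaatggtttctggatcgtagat
The GATA motif began 82 bases before the start of Gkn1 and 218 bases before that of Gkn2, and TATAAA 29 bases before that of Gkn2. None of the 3 motifs was found for Gkn3 in this window. Over 27025 mouse promoters of the same length, 13.0% held TATAAA, 10.3% AGATAA and 3.09% TGTTTAC, so these matches are a description of the letters.

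The summed share had no gap at the boundary of the group. In the high wells it ran from 0.702% to 6.41% of UMIs with a median of 1.19%, and in the low wells from 0% to 0.209% with a median of 0.138%. The last well inside the high group had 0.702% and the first outside had 0.697%, and 21 wells lay within 10% of the boundary. Across the 335 wells the share had a Spearman rho of -0.14 with the number of UMIs. The high wells were somewhat shallower, with a median of 8954 UMIs and 3049 genes against 11018 UMIs and 3579 genes in the low wells, and a gene's level is therefore given as a share of summed UMIs, in CPM (UMIs of the gene per 1000000 UMIs of the group). Both groups had similar shares of Kcnq1ot1 (0.0924% and 0.0918%), a nuclear RNA that is often raised in damaged cells in this method, and of Rn45s (7.99% and 7.59%), with 2.95 and 3.02 reads per UMI. When each well was thinned to 3000 UMIs before ranking, 69 of the 77 highest wells were high wells of the main ranking.

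**Figure D1:**
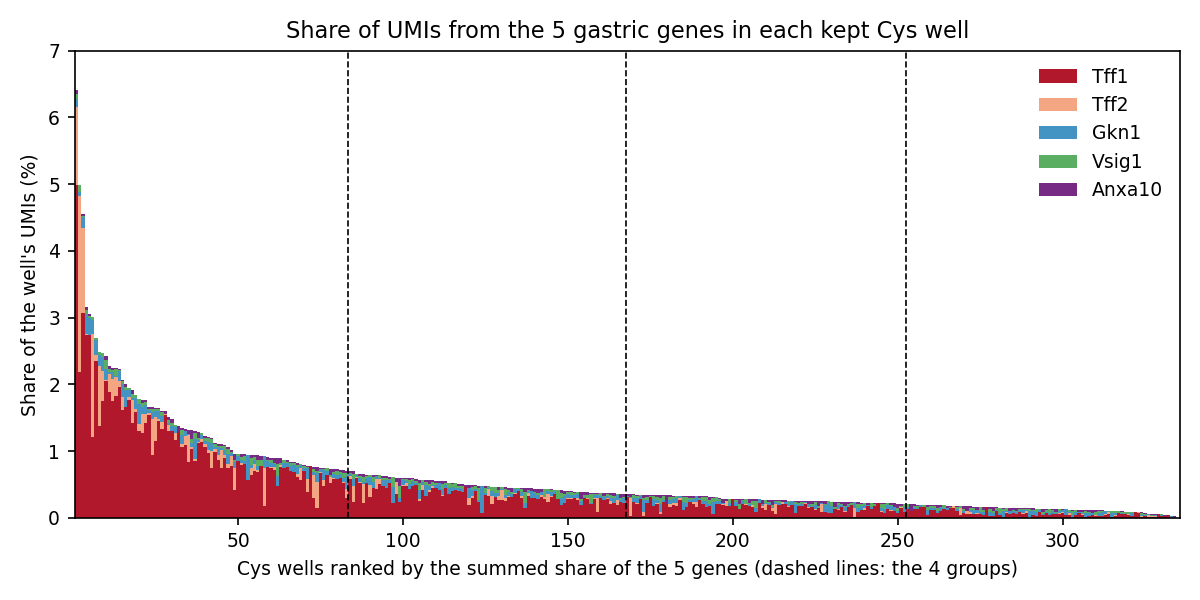
Each bar is 1 of the 335 kept Cys wells, ranked from the highest summed share on the left, and its height is the percentage of the well's UMIs from the 5 genes, stacked by gene. Dashed lines separate the 4 groups of wells; the first 3 wells, at 6.41%, 4.98% and 4.55%, stand above the rest, the share then falls gradually from 3.16% with no gap at the dashed lines, and Tff1 makes up most of the height in the 83 high wells.

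Tff1 carried most of the signal that defined the high wells. It supplied 75.4% of the 5 genes' UMIs in the high wells, 43.2% in the low wells and 68.9% over all kept wells. A high well held 5 to 450 Tff1 UMIs with a median of 72, and a low well 0 to 43 with a median of 5, so the numbers of UMIs per well overlapped. The summed level was 10427 CPM (10210 to 10647) in the high wells and 601 CPM (557 to 648) in the low wells, with 3369 and 1628 CPM in the second and the third group. Tff1 was the most abundant of the 5 genes in 78 of the 83 high wells and in 45 of the 83 low wells.

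The second trefoil peptide was distributed less evenly. Tff2 had a median of 4 UMIs per high well and a highest value of 127, and 19 high wells had none. In the low wells the median was 0, the highest 12, and 50 wells had none. The level was 1647 CPM (1562 to 1736) against 58.4 CPM (45.1 to 74.2), and the intermediate groups, at 240 and 187 CPM, were closer to the low wells than to the high wells. Tff2 UMIs outnumbered those of Tff1 in 5 high wells, and 9 wells held at least 50% of all Tff2 UMIs of the high group.

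The remaining 3 genes differed by smaller factors. Gkn1 had a median of 7 UMIs per high well (0 to 48) and 3 per low well (0 to 20), and its level rose over the groups from 302 through 463 and 590 to 987 CPM. Vsig1 ran from 0 to 23 UMIs per high well (median 3) and from 0 to 14 per low well (median 2), with levels of 446 and 226 CPM. Anxa10 had a median of 2 UMIs in both groups, with highest values of 17 and 20, and levels of 326 and 204 CPM. All 5 genes were detected together in 47 high wells and 18 low wells. Because these genes chose the wells, their differences are a description.

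To read each gene in wells it had not helped to choose, the wells were also ranked on 4 of the genes and the remaining one was read. Ranked without Tff1, the highest wells had a Tff1 level of 8357 CPM and the lowest 1552 CPM, a 5.38-fold difference (5.11 to 5.68). For Tff2 the corresponding levels were 1458 and 164 CPM, 8.86-fold (7.59 to 10.4). Gkn1 was 2.29-fold higher (2.04 to 2.59) and Vsig1 1.70-fold higher (1.45 to 2.0), at 430 against 252 CPM. Anxa10, at 315 against 229 CPM, was 1.37-fold higher (1.15 to 1.64), which is under the 1.5-fold limit used for calls throughout. Ranking without Tff1 left 53 of the 83 high wells (63.9%) in the highest group, while leaving out Tff2, Gkn1, Vsig1 or Anxa10 left 77, 80, 82 and 82. Tff1, Tff2, Gkn1 and Vsig1 were thus called higher in wells chosen by the other genes, and Anxa10 was not. Across the 335 wells its Spearman rho was 0.15 with Tff1, 0.01 with Tff2, 0.01 with Gkn1 and 0.04 with Vsig1. Among the other 4 genes, Tff1 had 0.35 with Tff2, 0.35 with Gkn1 and 0.26 with Vsig1. Gkn1 had 0.30 with Vsig1 and 0.20 with Tff2. Tff2 and Vsig1 had only 0.07, below Anxa10 with Tff1. These wells share 1 library and differ in depth, and the coefficients carry no test.

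No well of the other libraries resembled the high wells in its summed share. None of 280 WT, 291 het, 275 Bud or 369 fetal wells reached the lowest share of the high group, and 0 wells allow shares of up to 1.07%, 1.03%, 1.09% and 0.813%. The highest share outside Cys was 0.229%, in het. A UMI of any of the 5 genes was present in 334 of the 335 Cys wells, in 163 fetal wells (44.2%), 51 Bud wells (18.5%), 17 het wells (5.84%) and 8 WT wells (2.86%), at medians of 13709 (WT), 13347 (het), 13508 (Bud), 14649 (fetal) and 10872 (Cys) UMIs per well. In summed level the low wells of Cys also exceeded the other libraries. Single wells overlapped, since 1 het well was at or above the median share of the low wells. Tff1 stood at 601 CPM in the low wells and at 0.25 CPM in WT, 0.24 in het, 2.76 in Bud and 2.90 in fetal, while Gkn1, at 302 CPM in the low wells, had 6.53 CPM in Bud and 0.25 CPM in WT. Vsig1 had the highest level outside Cys in the fetal library, 45.6 CPM, which remains below the 226 CPM of the low wells. The fetal table has no row for Tff2 or Gkn1, the WT table none for Vsig1 and the het table none for Gkn1, so sums there are over the genes present. A plate cannot be told apart from its genotype or culture here.

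Stk11 itself is too low for a check of the allele within Cys. It had 5 UMIs in the high wells and 10 in the low wells, 5.93 and 8.84 CPM. Over whole libraries it stood at 20.4 CPM in WT, 14.2 in het, 12.05 in Bud, 7.62 in Cys and 16.1 in fetal. A 3′ tag may lie outside the altered part of the gene, so these levels do not check the genotype.

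Across the transcriptome most measured genes were not called in either direction. A gene with few UMIs has a wide interval, so a missing call does not show equal levels. Of 8396 genes with at least 20 UMIs over both groups, 298 (3.55%) were called higher in the high wells and 493 (5.87%) lower, a call being a ratio of CPM of at least 1.5 with a counting interval that excludes 1. The 5 ranking genes are left out of these counts. The median log2 ratio of all genes was -0.06, with 20 CPM added to both levels here and in every log2 ratio. Dividing all ratios by the median ratio of the genes with at least 100 UMIs, 0.954, turned the split to 399 higher and 366 lower, so the balance of the directions depends on the scaling. Of the genes called higher, 128 rose at each step from the low wells through the third and second groups to the high wells, and 184 of the genes called lower fell at each step. In 2 genes called higher and 2 called lower, a single well held over 50% of the UMIs of the higher side.

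Apart from the ranking genes, the clearest increases were in secreted products of mucous and goblet cells. Tff3 had 1605 UMIs in the high wells against 22 in the low wells, 97.8-fold higher in CPM (64.4 to 157). Spink4, a protease inhibitor of goblet cells, had 382 UMIs against 5, 102-fold higher (43.5 to 317). Both were carried by few wells: the median high well had 0 UMIs of either, the highest well had 360 of Tff3 and 133 of Spink4, and 3 wells held at least 50% of the Tff3 UMIs of the group. In the low wells the highest values were 2 and 1.

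Gkn3, Agr2 and Prap1 were higher across more of the wells. Gkn3, a gastrokine of gastric gland cells, had a median of 5 UMIs per high well (0 to 46) and 2 per low well (0 to 21). Its level rose from 232 through 356 and 436 to 933 CPM, 4.03-fold from the low to the high wells (3.5 to 4.65). Agr2, an endoplasmic reticulum protein needed to fold mucins, had a median of 5 UMIs (0 to 72) against 2 (0 to 42) and rose at each step from 403 to 1182 CPM, 2.93-fold (2.62 to 3.28). Prap1, a secreted protein of the small intestine, had a median of 3 UMIs (0 to 33) against 1 (0 to 15), 487 against 99.9 CPM. UMIs per well of these 3 genes overlapped between the high and low wells, and every step between the 4 groups went upward. The remaining names among the 12 highest log2 ratios were Dmbt1 (1.95), Phyh (1.26), Lypd8 (1.26), Slc12a8 (1.21), the brush border myosin Myo1a (1.21) and the protease Bace2 (1.21), of which Lypd8 was no longer called without the Tff3-rich wells described below.

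Gkn1 and Gkn3 varied together from well to well. Their Spearman rho over the 335 wells was 0.47, above that of Gkn1 with Tff1 (0.35), Tff2 (0.20) or Vsig1 (0.30), and Gkn1 and Agr2 had 0.36. The value for Gkn3 and Agr2, 0.45, was close to it, so the pair of gastrokines did not stand alone. Gkn1 and Gkn3 were both detected in 67 of the 83 high wells and 55 of the 83 low wells. Gkn2, whose gene lies between them, was 5.04-fold higher (3.55 to 7.29), at 183 against 36.3 CPM, but only 30 high wells held a UMI of it and 1 well held 34.4% of them. Its Spearman rho was 0.27 with Gkn1 and 0.18 with Gkn3. Gkn3 was the only gastrokine with a level above 10 CPM in other small intestinal libraries, at 42.1 CPM in WT, 44.5 in het and 33.9 in Bud.

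**Figure D2:**
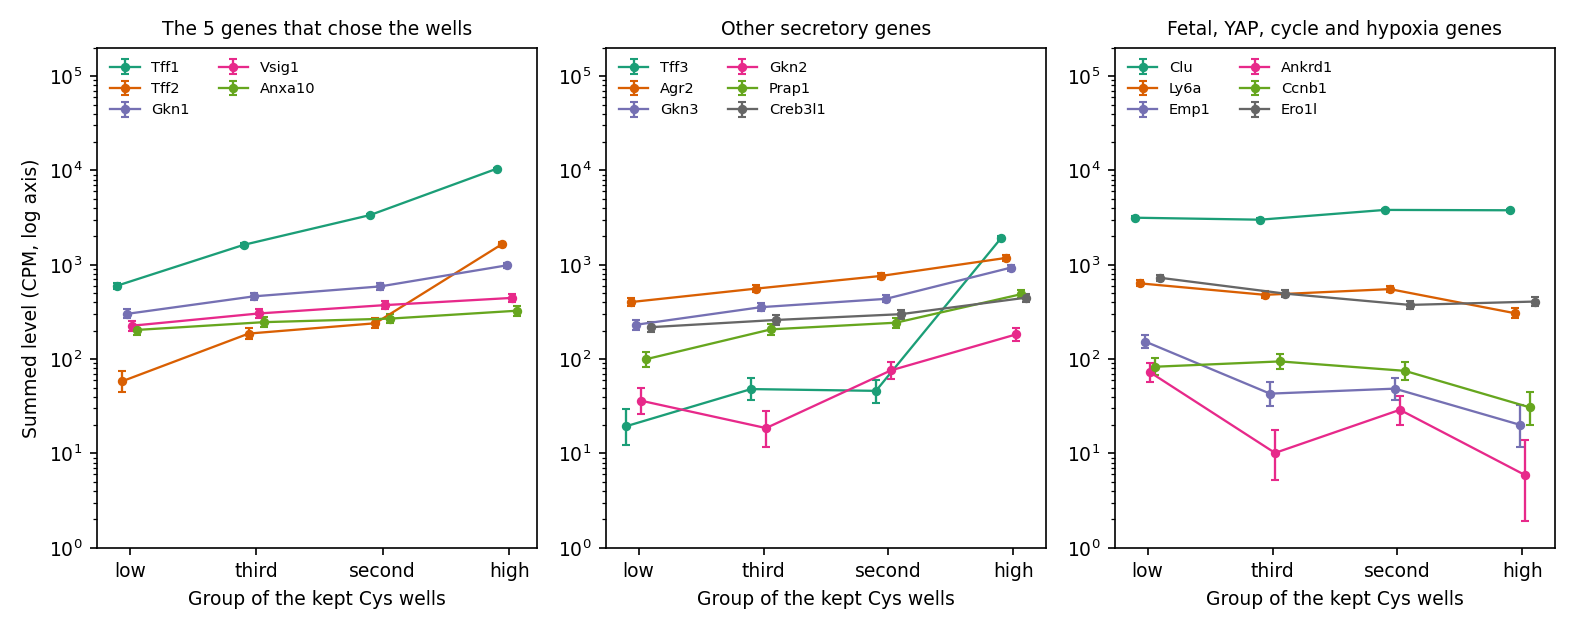
Levels in CPM on a log axis are shown for each of the 4 groups of kept Cys wells, from low to high, as the summed UMIs of the group with 95% Poisson intervals for counting error. Tff1, Gkn3, Agr2, Prap1 and Creb3l1 rise at every step, Tff3 is at 1903 CPM in the high wells and at 48.2 CPM or below in the other groups, Emp1 is lowest in the high wells at 20.2 CPM, and Clu stays between 3009 and 3820 CPM.

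The goblet-type genes marked a minority of the high wells. Wells with at least 10 Tff3 UMIs, a limit chosen after the values were seen, numbered 14 in Cys: 12 among the high wells, 0 in the second group, 2 in the third and 0 among the low wells. The 12 wells held 11.9% of the high wells' UMIs and 97.3% of their Tff3, 92.1% of their Spink4, 95.7% of their Fcgbp and 100% of their Muc2. The share of Tff3 follows largely from the limit itself. Muc2 is the gel-forming mucin of the intestine and Fcgbp is a protein of its gel. The 12 wells also held 60.0% of the UMIs of Atoh1, the transcription factor that commits gut cells to secretory fates, and 75.3% of those of the Paneth cell protease Mmp7. Of the 77 Mmp7 UMIs of the high wells, 37 were in 1 well. Mmp7 was the 1 measured gene of the Paneth cell list, and Lyz1 had 0 UMIs in the high wells and 4 in the low wells. The 3 wells with the highest summed shares, 6.41%, 4.98% and 4.55%, were all of this kind, with 259, 360 and 247 Tff3 UMIs. These 3 wells carried most of the other goblet-type signal. They had 10, 7 and 9 of the 26 Muc2 UMIs of the high wells, 102, 75 and 133 of the 382 of Spink4, and 16, 22 and 9 of the 69 of Fcgbp. Another of the 12, with 147 Tff3 UMIs, had 2 of Spink4 and 0 of Fcgbp.

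Within the high wells the 12 Tff3-rich wells differed from the rest. For the 5 ranking genes and Tff3 this is a description, since the ranking and the Tff3 limit chose the wells. Tff1 stood at 21421 CPM against 8943 CPM in the other 71 high wells, and Tff2 at 5275 against 1158 CPM. Gkn1 was at 1386 against 933 CPM, Gkn3 at 1785 against 818 CPM and Agr2 at 2114 against 1057 CPM. Vsig1 stood at 469 against 443 CPM and Anxa10 at 249 against 336 CPM. The 2 Tff3-rich wells outside the high group had 57 Tff1 UMIs of 34616 and 7 of 8531, so Tff3-rich wells were not all rich in Tff1. The other 71 high wells had a Tff3 level of 59.2 CPM and no Muc2 UMI, and their level of Gkn3, which had no part in the ranking, was 3.53 times that of the low wells. With all 14 wells left out and the remaining 321 ranked anew, Tff3 was higher by 1.21 on the log2 scale in place of 5.61, Gkn3 by 1.65 in place of 1.92 and Agr2 by 1.25 in place of 1.51, while Fcgbp was at -0.01 in place of 1.91. The fall of Tff3 follows largely from leaving out wells by their Tff3 UMIs.

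The other small intestinal libraries also held Tff3-rich wells, with few UMIs of the gastric genes. By the same limit, which takes no account of depth, 40 WT, 37 het and 59 Bud wells were Tff3-rich. Those wells held 2404, 4475 and 4346 Tff3 UMIs and 8, 38 and 50 UMIs of the 5 ranking genes together, against 1587 Tff3 UMIs and 3025 UMIs of the 5 genes in the 14 Tff3-rich wells of Cys. Over all kept wells these libraries had few UMIs of the 5 genes. WT had 1 of Tff1, 2 of Tff2, 1 of Gkn1 and 9 of Anxa10. The het library had 1 of Tff1, 28 of Tff2, 4 of Vsig1 and 20 of Anxa10. Bud had 11 of Tff1, 1 of Tff2, 26 of Gkn1, 46 of Vsig1 and 37 of Anxa10. Most of these UMIs thus lay in the Tff3-rich wells in WT and het, but not in Bud. The fetal table has no row for Tff3.

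**Figure D3:**
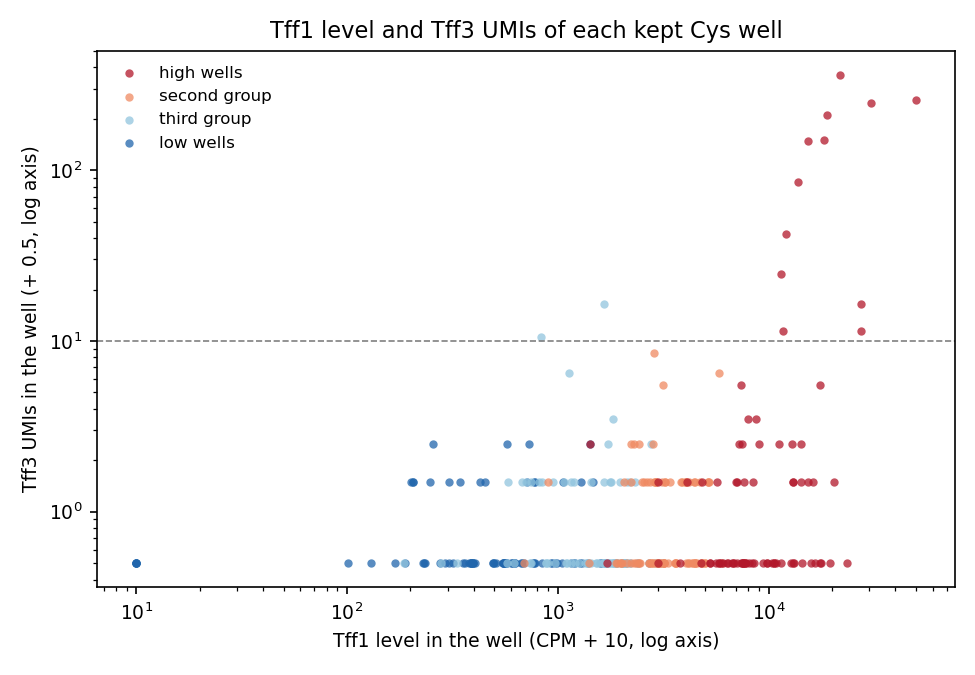
Each point is 1 of the 335 kept Cys wells, with its Tff1 level (CPM plus 10) on the x axis and its Tff3 UMIs (plus 0.5) on the y axis, both logarithmic, coloured by group; the dashed line marks 10 Tff3 UMIs. The 12 high wells above the line lie at the upper end of the Tff1 range, most high wells lie below the line, and 2 wells of the third group are the other ones above it.

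The gene lists add the other members of these programmes. Here and below, list counts stand beside 3.55% of all measured genes called higher and 5.87% called lower. Of 8 measured goblet cell genes 7 were called higher (Tff3, Spink4, Fcgbp, Muc2, Atoh1, Agr2, Spdef) and 0 lower, with a median log2 ratio of 1.39 beside -0.06 for all genes, or 1.71 with Atoh1, which had 20 UMIs against 0, placed at its bound. Without the Tff3-rich wells 4 were called. Of 14 measured genes of mucin secretion and glycosylation 8 were called higher and 1 lower (median 0.65), and 7 were called higher without the Tff3-rich wells. They included Creb3l1, a transcription factor of secretory cells, at 448 against 218 CPM (2.05-fold, 1.74 to 2.42), and Ern2, the endoplasmic reticulum stress sensor of mucous cells, at 174 against 82.2 CPM (2.12-fold, 1.62 to 2.78). Galnt7, which starts O-glycan chains, was 1.94-fold higher (1.58 to 2.39), and Spdef, a factor of goblet and mucous cell maturation, stood at 116 against 61.01 CPM. The list overlaps with the goblet list in Agr2 and Spdef. The exception was Gcnt1, which branches mucin O-glycans, at 51.0 against 96.4 CPM.

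Gastric markers outside the ranking were present in part only. Of 5 measured surface mucous cell genes 3 were called higher and 0 lower (median log2 ratio 0.62): Gkn2, the sulfotransferase Sult1c2 at 170 against 84.9 CPM, and the mucin-like Dpcr1 at 751 against 481 CPM (1.56-fold, 1.39 to 1.75). The protease Ctse, at 251 against 194 CPM, and Psca, with 27 against 35 UMIs, were not called. The called genes did not rise at every step. Gkn2 and Sult1c2 were lower in the third group (18.6 and 76.1 CPM) than in the low wells. Dpcr1 was highest in the second group (771 CPM). Of the gland genes the 2 measured were called higher, Gkn3 and the water channel Aqp5 (79.5 against 41.6 CPM). The call of Dpcr1 was lost in 7 of 26 alternatives and that of Aqp5 in 3, with a change of sign in 1 more. The defining secreted mucins were at or near 0: Muc5ac had 1 UMI in all kept Cys wells, with 0 in the high and 0 in the low wells, and Muc6 had 0. Cldn18, the gastric claudin, had 1 and 2 UMIs in the high and low wells, and Sox2, Pgc, Atp4a and Atp4b have no row in the table. Surface mucous genes were not particular to the high wells. Their summed level, over the genes present, was 1397 CPM in the high wells, 833 CPM in the low wells and 461 CPM in fetal. It was 21.5 CPM in WT, 27.2 in het and 11.5 in Bud. What set the high wells apart from the low wells lay in trefoil peptides, gastrokines and a few further genes and not in the gastric mucins. The high wells are therefore named only by their ranking genes.

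Few foregut and intestinal identity genes were called. Of 9 measured foregut transcription factors 0 were called higher and 1 lower (median log2 ratio 0.09). The one called was Foxa2, a forkhead factor of endoderm, with 7 against 41 UMIs, while log2 ratios of the others ran from -0.35 (Gata6) to 0.38 (Gata4), with Onecut2 at 0.31 and Sox21 at 0.05. Over the alternatives 0 to 2 of the list were called in each direction. Of 9 measured intestinal identity genes 1 was called higher, Lgals4, an epithelial galectin, at 1263 against 837 CPM (1.51-fold, 1.38 to 1.65), just past the limit, and its call was lost in 11 of 26 alternatives. The list's median was 0.26, with Phgr1 at 0.39, Hnf4a at 0.36 and Cdh17 at 0.29, and 0 to 5 of its genes were called higher over the alternatives, the number moving by over 1.5 times in 12 of 26. Cdx2, the intestinal master regulator, had 9 UMIs in either group. The stem cell gene Lgr5 had 7 against 9 UMIs, and 0 of 9 measured stem cell genes were called in either direction.

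The genes that followed the summed share most closely across all 335 wells were of several kinds. Among 2561 genes detected in at least 50% of wells, the 10 highest Spearman coefficients belonged to Prap1 (0.34), Gstm1 (0.31), Lgals4 (0.31), Gkn3 (0.30), Pigr (0.30), Lgals3bp (0.29), Gmds (0.28), Lrrc26 (0.27), Fxyd3 (0.27) and Sord (0.26). Gstm1, a glutathione transferase, stood at 1745 against 885 CPM (1.97-fold, 1.82 to 2.14). Pigr, the receptor that carries IgA across the epithelium, stood at 891 against 494 CPM (1.80-fold, 1.61 to 2.01), and Gmds, an enzyme that makes the donor for fucose, at 489 against 231 CPM (2.12-fold, 1.81 to 2.48). The lowest coefficients were those of Eif5a (-0.25), Baz1a (-0.23), Tagln2 (-0.23), Cct6a (-0.23) and Pak2 (-0.23). All of these are weak and share the library and its range of depth.

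Of 7 measured epithelial defence genes 4 were called higher (Pigr, Dmbt1, Cxcl5, Ccl20) and 1 lower (Slpi), with a median of 0.81. The shares over all genes were 3.55% higher and 5.87% lower. Dmbt1, a mucosal scavenger protein, had 100 against 18 UMIs (7.45-fold, 4.48 to 13.1), and 54.0% of its UMIs in the high wells came from the 12 Tff3-rich wells. Slpi, a secreted protease inhibitor, had 2 against 54 UMIs, of which 1 low well held 87.0%, and it was no longer called with that well left out.

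The genes lower in the high wells included several of the fetal or regenerating gut epithelium. Emp1, an epithelial membrane protein, had 17 UMIs in the high wells and 174 in the low wells, 7.63-fold lower (4.63 to 13.4), with 10 and 33 wells holding a UMI. Ly6a, the surface antigen Sca-1 of regenerating gut, had a median of 2 UMIs per high well (0 to 14) and 6 per low well (0 to 68), at 307 against 636 CPM, 2.07-fold lower (1.79 to 2.40). Cldn4, a claudin, stood at 37.9 against 97.3 CPM and fell at each step. The galectin Lgals3 was at 140 against 306 CPM and Ier3, an immediate early gene, at 130 against 286 CPM; their intermediate groups, at 156 to 165 CPM and 120.5 to 125 CPM, were close to the high wells, so the difference lay mainly between the low wells and all others. Others among the 12 lowest log2 ratios were Wdr92 (-1.28), Tnfrsf23 (-1.09), the spindle gene Hmmr (-1.03), Ccnb1 (-1.02), E2f5 (-1.01), Psapl1 (-1.01) and the centromere gene Cenpm (-1.01).

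As a list, fetal and regenerative genes were not uniformly lower. Of 19 measured genes 0 were called higher and 5 lower, among them Ly6a, Cldn4, Emp1 and Tubb6, with a median log2 ratio of -0.37. Over all genes 5.87% were called lower. The most abundant members were not called. Clu, a secreted chaperone that marks regenerating gut cells, stood at 3787 against 3158 CPM, 1.20-fold higher (1.14 to 1.26), with 2 to 159 UMIs per high well and 2 to 212 per low well. Anxa1 was at 1014 against 1117 CPM, Msln at 1492 against 1938 CPM and the alarmin Il33 at 1316 against 1482 CPM. In WT, Clu had 10.3, Anxa1 8.33 and Il33 1.77 CPM, so both the high and the low wells of Cys were far above WT in these genes.

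Several YAP/TAZ targets, genes switched on when cells spread or are stretched, were lower, mostly from few UMIs. Of 14 measured, 7 were called lower, beside 5.87% of all genes, and 0 higher (median -0.50). Ankrd1 had 5 against 82 UMIs, but 1 low well held 69.5% of the latter, and with the largest well of each gene left out 4 of the list were called. Asap1 (11 against 43 UMIs) and Ptpn14 (18 against 51) were spread over more wells. Ctgf, the most abundant classical target, was not called, at 716 against 629 CPM. Of 11 ERK targets 3 were called lower (Ier3, Epha2, Dusp4). Dusp4 had only 4 against 19 UMIs. The kinase receptor Epha2 fell at each step to 99.6 CPM from 156 CPM, and its call was lost in 9 of 26 alternatives.

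Several cell cycle genes were lower in the high wells. Of 16 G2 and M phase genes 6 were called lower and 0 higher (median -0.41), among them the cyclins Ccnb1 at 30.8 against 83.1 CPM and Ccnb2 at 86.6 against 166 CPM, and the kinetochore protein Cenpf at 24.9 against 72.5 CPM. Of 16 S phase genes 2 were called lower, the ribonucleotide reductase subunits Rrm1 (65.2 against 126 CPM) and Rrm2 (138 against 232 CPM). Mki67 was not called, at 156 against 218 CPM, and had a UMI in 34 high and 47 low wells. After each well was thinned to 3000 UMIs, which left 76 high and 75 low wells, the shares with a Mki67 UMI were 19.7% (11.5 to 30.5) and 32.0% (21.7 to 43.8), with exact Clopper-Pearson intervals. For S phase, 2 of 16 is not far from the 5.87% of all genes called lower. Over the alternatives run, 2 to 10 of the G2 and M phase genes and 0 to 10 of the S phase genes were called lower: ranking without Tff1 gave 10 and 10, while a limit of 2-fold, or 2 groups of wells in place of 4, gave 2 and 0.

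Some hypoxia genes were lower in summed level. Of 12 hypoxia genes 4 were called lower, beside 5.87% of all genes, and 0 higher (median -0.47): Bnip3, Ndrg1, Ero1l and Pfkfb3. Ero1l, an oxidase of the endoplasmic reticulum, was at 408 against 729 CPM, 1.79-fold lower (1.57 to 2.03), and Bnip3 fell at each step to 116 CPM from 200 CPM. Without the Tff3-rich wells 8 were called lower. The single well did not follow the sum: the share of UMIs from the 12 genes had a median of 0.0977% in the high wells (0.0182% to 0.574%) and 0.0882% in the low wells (0% to 0.987%), so the typical low well had no more than the typical high well. Of 14 glycolysis genes 2 were called lower (Pfkp and the lactate transporter Slc16a3, median -0.34), and Pgk1 at 1410 against 2028 CPM was below the limit for a call. A count of 2 of 14 is not far from the 5.87% of all genes called lower. Of 17 oxidative phosphorylation genes 0 were called, and the unfolded protein response had 1 of 13 called higher, the disulfide isomerase Pdia3 at 372 against 217 CPM.

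**Figure D4:**
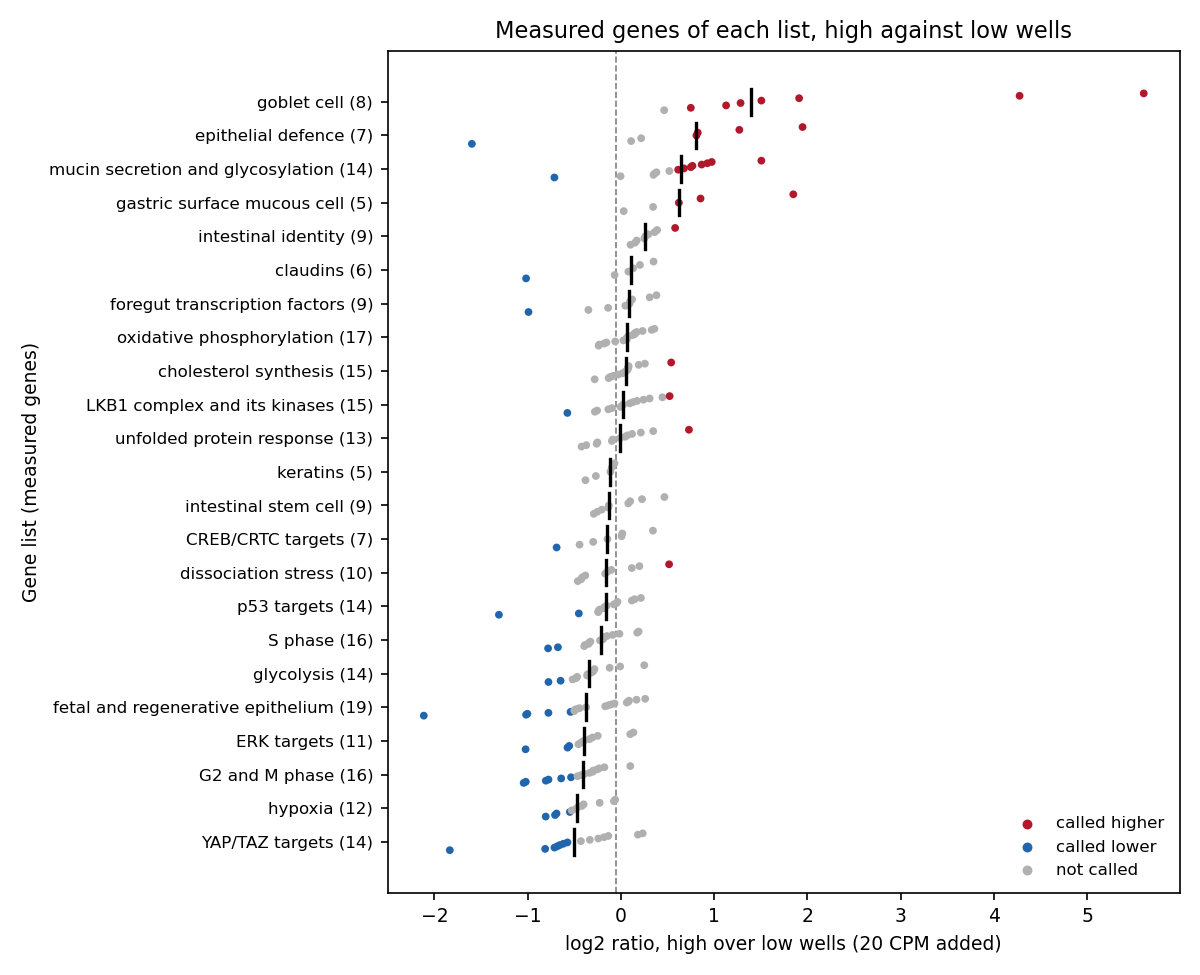
Points are measured genes of each list that had at least 5 of them, placed at their log2 ratio of high over low wells with 20 CPM added and coloured by call; black bars are list medians and the dashed line is the median of all genes, -0.06. Goblet, defence and mucin secretion genes lie at the right, with medians of 1.39, 0.81 and 0.65, and YAP/TAZ, hypoxia and G2 and M phase genes at the left, with medians of -0.50, -0.47 and -0.41.

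Lists of other cell types and of sample quality showed little. Mesenchymal and enteroendocrine lists had 0 measured genes, and Col1a1 had 1 and 0 UMIs in the high and low wells. The immune and endothelial lists had 1 and 2 measured genes and 0 calls, and the enterocyte and tuft lists 2 each and 0 calls. Of 3 measured M cell genes 1 was called higher (Ccl9, 48 against 5 UMIs) and 1 lower (Tnfaip2, 3 against 17 UMIs). Of 10 dissociation stress genes 1 was called higher, Hspa1b. Keratins had 0 of 5 called, and the squamous keratin Krt4 stood at 257 against 348 CPM without a call. The lists of p53 targets (2 of 14 lower), CREB/CRTC targets (1 of 7 lower), cholesterol synthesis (1 of 15 higher), interferon response (0 of 3) and claudins (1 of 6 lower) had few calls. Among all genes 3.55% were called higher and 5.87% lower. Of 15 genes of the LKB1 complex and its kinases Stradb was called higher (17 against 9 UMIs) and Prkaa2 lower (17 against 45 UMIs), calls that were lost in 8 and 7 of 26 alternatives, with a change of sign of Prkaa2 in 1 more.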

How the data were processed

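The data are SORT-seq gene-by-well tables (CEL-Seq2 chemistry, per the labels' protocols). The UMI table, deposited as raw counts, was the basis of every value. The Cys read table, also raw counts as deposited, served for sequencing depth alone. Estimated counts, as the authors deposited them for transcripts, were an alternative: they equalled the UMIs corrected for 4096 identifier codes, with a largest deviation of 9.095e-13. Per the submitters' processing notes, GRCm38 was the build and the tools included Seurat 4.1.0, featureCounts 1.5.2 and STAR 2.6.1. Strand settings and multi-mapped reads are not described there, so near-identical or overlapping genes are uncertain.

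In Cys, 70 spike-in rows were dropped, and wells with 1000 to 100000 UMIs and at most 2% Kcnq1ot1 were kept. This left out 25, 2 and 22 of 384 wells and kept 4327899 UMIs. The tables held 0 mitochondrial rows. The same filter gave 280 WT, 291 het, 275 Bud and 369 fetal wells. No doublet caller was run on these sorted single cells. Well codes are the same 384 in every plate, and 131 codes were kept in all 5 libraries, since the codes name positions and not cells.

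UMIs were summed over the wells of a group and scaled to CPM. Levels have exact Poisson intervals and ratios exact conditional binomial 95% intervals. No p-value was computed, since 1 library per group has no replicate. The ratio step was tested on simulated group totals with known fold changes and counting error only. That simulation had no spread between wells, so it does not cover genes carried by few wells. Python 3.11.15, numpy 2.4.6, pandas 2.3.3, scipy 1.17.1 and matplotlib 3.10.9 were used. Gene positions are from GENCODE M21.

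The wells, the 34 gene lists and the tests were chosen with earlier results of these data known. The named genes were the 5 ranking genes, the 12 highest and 12 lowest log2 ratios among called genes detected in 25% or more of the wells of the higher group, up to 4 members per list with at least 20 CPM in either group, the 10 highest and 5 lowest Spearman coefficients with the summed share, and 16 fixed genes; predicted, ribosomal protein and mitochondrial genes were excluded. Other list members are named where they were called or define a cell type, and were chosen after their values were seen. Some genes that the rule names are not reported here.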

Additional observations from a re-analysis of the deposited data

How the results depend on the processing

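All results rest on 1 plate of Cys, so nothing here measures the spread between cultures, and the high wells are a range of a continuous share and not a cell type. No paired analysis was possible because each group is 1 library. The planned split of the other libraries was not run, because at least 90% of wells were to have a UMI of the 5 genes and none met this. Over 26 alternatives the number of genes called higher was 146 to 899 (298 as reported) and lower 234 to 1207 (493 as reported). It moved by over 1.5 times with the rule without Tff1 (554 higher), the mean rank of the 5 genes (449 higher), the wells cut into 2 groups in place of 4 (191 higher, 312 lower), equal weight for every well (899 higher, 1207 lower) and a ratio of at least 2 (146 higher, 234 lower). The cause was not tested, except that 2 of these changed the call itself. The last asks for a larger ratio. With equal weight for every well, a call was made on the ratio alone, without the counting interval, so its counts are not like for like. The ratio of Vsig1 in wells ranked on the other 4 genes was 1.30 with 2 groups and 1.70 under the limit of 2, both not called. Among the 73 called genes of the named set, 1715 of 1898 values over the alternatives kept direction and call, 177 lost the call and 6 changed sign: Hspa1b (-0.58 without Tff1 in the rule), Prkaa2 (0.0146, 2 groups), Ccl20 (-0.00218, 2 groups), Aqp5 (-0.0277, top and bottom 10%), Cenpf (0.17, top and bottom 10%) and Fcgbp (-0.00754, Tff3-rich wells left out). In 19 of the 73 the call was kept under every alternative run. Called genes per list ranged from 4 to 8 (goblet, higher), 3 to 11 (mucin secretion, higher), 2 to 8 (YAP/TAZ, lower) and 1 to 9 (hypoxia, lower). The Tff3-rich, median-centred and largest-well alternatives were chosen after seeing the data.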
